A study of Macrobrachium nipponense with 6 samples.

Results

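The microRNA miR-190 was followed on single-colour arrays hybridised with RNA of Macrobrachium nipponense, the oriental river prawn, a decapod crustacean of fresh water. Its members were the array probes whose name, after the species prefix, is miR-190 with or without an arm or variant suffix, and 11 of the 2546 miRNA probes on each array met this rule. The hypoxia group held 3 samples from prawns kept for 24 h in water bubbled with nitrogen to 2.0 ± 0.1 mg O2 per L, and the normoxia group held 3 samples from prawns at 6.5 ± 0.2 mg O2 per L for the same time. Every sample, in both groups, was total RNA of 4 tissues together (gill, hepatopancreas, muscle and hemocytes), so a change in the mix of tissues and a change within a tissue cannot be told apart. The labels give no age, sex or strain, and do not say whether samples came from separate animals, so a spread between samples may be technical. The rule itself reads only names. The stem, however, was selected on values of these same arrays at the 2 oxygen levels, known from earlier work, so its differences between hypoxia and normoxia are described below and are not offered as tests.

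MicroRNAs are short RNAs that guide silencing complexes to messenger RNAs, chiefly through the seed, bases 2 to 8 of the mature strand. The miR-190 gene is found across bilaterian animals and lies in an intron of a talin gene in vertebrates and in Drosophila. In Drosophila, miR-190 has been reported to strengthen the response to low oxygen by repressing Fatiga, the prolyl hydroxylase that marks the hypoxia-inducible factor for destruction. A precursor hairpin gives a 5p strand and a 3p strand, which pair with each other and have different seeds.

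The array's target sequences split the 11 probes into 6 for the 5p strand and 5 for the 3p strand. The probes ame-miR-190, hme-miR-190 and nvi-miR-190 carry no arm in their names and were placed in the 5p arm because their targets begin with the same bases as the named 5p targets. The targets of the 5p arm are shown because they differ only at the 3′ end, on which the comparison of probes below turns; each is written 5′ to 3′ with the seed in capitals, in order of length.
tca-miR-190-5p: aGAUAUGUuugauauucuugg
hme-miR-190: aGAUAUGUuugauauucuuggu
bmo-miR-190-5p: aGAUAUGUuugauauucuugguu
dsi-miR-190-5p: aGAUAUGUuugauauucuugguug
ame-miR-190: aGAUAUGUuugauauucuugguuguu
nvi-miR-190: aGAUAUGUuugauauucuugguugua

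All 6 targets of the 5p arm share their first 21 bases, and they run from 21 to 26 nt. They have 1 seed in common, GAUAUGU, which no other miRNA probe on the array carries. From ame-miR-190 to nvi-miR-190, counting from 1 at the 5′ end, the single difference is U26A. The closest target of another stem was 7 edits away from a 5p target, such as that of dme-miR-4974-5p from hme-miR-190. The prefixes name the arthropods whose miRNAs the array was designed on, and the 3′ end of the prawn's own miR-190 was not analysed here.

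The 3p targets are shown in the same way because they share far less with each other, including at the seed in capitals.
tca-miR-190-3p: cCCAGGAGucaaacauau
dme-miR-190-3p: cCCAGGAAucaaacauauuauu
dps-miR-190-3p: cCCAGGAAucaaacauauuauua
tur-miR-190-3p: aCCAAGAAucagacauaugcuca
bmo-miR-190-3p: cCCGGGAAucaaacauauuacucu

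Among these 5 probes there were 4 different seeds, and only dme-miR-190-3p and dps-miR-190-3p shared one, CCAGGAA. The seed of tur-miR-190-3p, CCAAGAA, also occurs in tca-miR-3880-5p, a probe of another stem. The longest unbroken stretch of Watson-Crick complement with the 26-nt ame-miR-190 target was 11 nt for bmo-miR-190-3p, dme-miR-190-3p and dps-miR-190-3p, 10 nt for tca-miR-190-3p and 9 nt for tur-miR-190-3p.

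The 6 arrays were not alike, which bears on every value below. A probe counted as detected when its intensity exceeded the local background by over 3 times the standard deviation (SD) of the empty spots, a limit of 27.8 to 77.0 intensity units on the hypoxia arrays and 35.6 to 94.5 on the normoxia arrays. Between 420 and 908 probes were detected on a hypoxia array and between 342 and 1001 on a normoxia array. Hypoxia 3 stood apart: across the tested probes its log2 values had a mean Pearson r of 0.754 with the other hypoxia arrays. The mean within the own group was 0.813 for hypoxia 1, 0.835 for hypoxia 2 and 0.837 to 0.867 for the normoxia arrays. The means of hypoxia 1 and 2 include their r with hypoxia 3, 0.732 and 0.776. With each other hypoxia 1 and 2 had an r of 0.893, and the lowest r within normoxia was 0.826. The added calibration probes named 3M read 10.8%, 7.14% and 1.22% of those named 3P on hypoxia 1, 2 and 3, against 2.58%, 3.73% and 1.87% on normoxia 1, 2 and 3. The files do not say what these names stand for, and the part of this ratio in the results was not tested. Of the tissue markers, 3 of 9 probes for the muscle miRNA miR-1 and 1 of 6 for miR-133 were detected on all 6 arrays. No probe of the 8 for the nervous system miRNA miR-124 was, and 3 of these passed the limit on hypoxia 2 alone; no miRNA marker was at hand for the other 3 tissues.

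The probes of the 2 arms of miR-190 differed in detection. The 6 of the 5p arm share their first 21 bases and are not 6 independent observations. How well the 3p targets, with 4 different seeds, match the prawn's own 3p strand was not tested. All 6 probes of the 5p arm were detected on all 6 arrays, as were 11.5% of the 2546 miRNA probes. Over all stems, probes named for the 5p arm were detected on all 6 arrays in 8.27% of 762 cases and probes named for the 3p arm in 7.86% of 763. These shares leave out probes with no arm in their name, such as ame-miR-190, hme-miR-190 and nvi-miR-190. Of the 5 miR-190 probes of the 3p arm, 4 were detected on none of the arrays, as were 39.6% of all miRNA probes. The exception was dme-miR-190-3p, which passed the limit on hypoxia 2 only.

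Intensity above the local background shows how near the 3p probes lay to 0. For dme-miR-190-3p it was 7.92, 39.1 and 21.0 on hypoxia 1, 2 and 3, against 1.41, 46.5 and -5.53 on normoxia 1, 2 and 3. The reading on hypoxia 2 that was called detected was lower than the one on normoxia 2. The limit was 27.8 on hypoxia 2 and 67.6 on normoxia 2. After normalization the order turned, with log2 values of 6.96 on hypoxia 2 and 6.47 on normoxia 2. The highest reading of any 3p probe was 56.5, for dps-miR-190-3p on normoxia 2, and tca-miR-190-3p had the lowest, -7.51, on normoxia 3. In the authors' deposited values dme-miR-190-3p stood at 24.2 on hypoxia 2 and 0.04 on normoxia 2, and no 3p probe exceeded 24.2 on any array. A level of the 3p strand, or a difference in it between oxygen levels, was therefore not measurable at this limit. No miR-190 probe was detected on all arrays of one group and none of the other, a pattern shown by 0.0393% of the 2546 miRNA probes. The count for the 3p arm depends on the limit: with one based on the median absolute deviation of the empty spots, 4 of its 5 probes were detected on at least 1 array. These were dme-miR-190-3p and dps-miR-190-3p on 3 arrays each, bmo-miR-190-3p on 2 and tca-miR-190-3p on 1. With a single background per array in place of the local background, no 3p probe was detected on any array. The shares of all miRNA probes under these alternatives are not given here, so neither count can be set against the whole array.

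The first comparison asked whether the level of miR-190 differed between prawns held for 24 h in low oxygen and their normoxic controls, and it could be made for the 5p arm alone. Values are log2 intensities after background correction and quantile normalization, and differences are hypoxia minus normoxia with the standard error (SE) of the limma fit across all 339 tested probes, each detected throughout the hypoxia group, the normoxia group or both. The 6 probes of the 5p arm lay between -0.43 and 0.29 in difference, none reached 2-fold, and the groups overlapped in each. Of all 339 tested probes, 91.45% also stayed under 2-fold. Over all 339 tested probes the groups did not overlap in 10.0%, with all hypoxia values above in 3.83% and all below in 6.19%. None of the 6 passed limma's test at an adjusted p of 0.05, where 0% of the 339 probes passed. At an unadjusted p under 0.05, again 0 of the 6 passed, where 4.42% of all tested probes did. The median SE of the 6 differences was 0.35, close to the median of 0.39 over all tested probes, so a difference of less than about 2-fold lay within the error of most of them.

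The probe bmo-miR-190-5p, the 23-nt target and the one with the highest mean intensity of the stem, read 9.83, 9.52 and 10.50 on hypoxia 1, 2 and 3. On normoxia 1, 2 and 3 it read 10.09, 10.05 and 9.52. The groups overlapped: hypoxia 3 was the highest of the 6 arrays, and hypoxia 2 and normoxia 3 were equal at the bottom. Its mean was 9.95 ± 0.50 in hypoxia and 9.89 ± 0.32 in normoxia (log2, SD, n = 3 each), a difference of 0.06 (SE 0.34, 95% confidence interval -0.77 to 0.90). Over hypoxia 1 and 2 only, the difference was -0.21.

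For hme-miR-190, 1 base shorter, the readings were 9.52, 9.54 and 10.35 on hypoxia 1, 2 and 3, against 9.86, 9.54 and 9.32 on normoxia 1, 2 and 3. Again hypoxia 3 alone lay above all normoxia arrays, while hypoxia 1 and 2 fell inside the normoxia range. The means were 9.80 ± 0.47 in hypoxia and 9.57 ± 0.27 in normoxia (log2, SD, n = 3 each), which is a difference of 0.23 (SE 0.33), or -0.04 with hypoxia 1 and 2 only.

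The 24-nt target of dsi-miR-190-5p gave 9.01, 9.24 and 9.56 on hypoxia 1, 2 and 3 and 9.32, 9.24 and 8.83 on normoxia 1, 2 and 3. Its values were the closest together of the 6 probes within the hypoxia group apart from tca-miR-190-5p, with a range of 0.56 there and 0.49 in normoxia. The groups overlapped, with means of 9.27 ± 0.28 in hypoxia and 9.13 ± 0.26 in normoxia (log2, SD, n = 3 each) and a difference of 0.14 (SE 0.27), or -0.0083 with hypoxia 1 and 2 only.

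A wider spread was seen for nvi-miR-190, a 26-nt target, at 9.23, 9.30 and 10.71 on hypoxia 1, 2 and 3 against 9.80, 9.54 and 9.52 on normoxia 1, 2 and 3. Here hypoxia 1 and 2 lay below every normoxia array and hypoxia 3 lay above every one. The mean of 9.75 ± 0.84 in hypoxia beside 9.62 ± 0.16 in normoxia (log2, SD, n = 3 each) thus averaged opposite moves. The difference was 0.13 (SE 0.45) over all arrays and -0.35 with hypoxia 1 and 2 only.

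The other 26-nt target, ame-miR-190, gave 8.52, 8.05 and 7.23 on hypoxia 1, 2 and 3, against 8.71, 8.37 and 8.01 on normoxia 1, 2 and 3. It was the only one of the 6 whose mean was lower in hypoxia, at 7.93 ± 0.65 against 8.36 ± 0.35 in normoxia (log2, SD, n = 3 each), under quantile normalization; after cyclic loess scaling its difference was 0.10 in place of -0.43 (SE 0.40). Hypoxia 3 was below every normoxia array, and hypoxia 1 and 2 were inside their range, so that with hypoxia 1 and 2 only the difference was -0.08. Its reading of 77.5 above background on hypoxia 3 barely passed the limit of 77.0, and at a limit of 4 standard deviations it was detected on 5 of the 6 arrays.

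The shortest target, that of tca-miR-190-5p, read 9.15, 9.19 and 8.79 on hypoxia 1, 2 and 3 and 9.31, 8.77 and 8.19 on normoxia 1, 2 and 3. All 3 hypoxia values lay inside the normoxia range, which at 1.13 was the widest of the 6 probes. The means were 9.04 ± 0.22 in hypoxia and 8.75 ± 0.56 in normoxia (log2, SD, n = 3 each), with a difference of 0.29 (SE 0.35). This was the one 5p probe whose difference stayed above 0 with hypoxia 1 and 2 only, at 0.41; without normoxia 3 it was -0.0052.

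Of the 6 probes, 5 had a difference above 0, where 42.2% of the 339 tested probes did, and their median was 0.13 against -0.09 over all tested probes. With hypoxia 1 and 2 only, 1 of the 6 lay above 0, and the share of all tested probes that did so is not given here. The 6 probes target nearly the same sequence in the same RNA samples and are not independent of each other, so their shared sign is not 6 observations.

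The second comparison asked whether probes that differ only in the 3′ end of their target behaved alike on each array. Each probe was set against its own mean over the normoxia arrays, which takes out the level of the probe. It does not take out an effect of brightness on the size of a change. On hypoxia 1 these deviations ran from -0.39 to 0.39 over the 6 probes, on hypoxia 2 from -0.37 to 0.43, and on hypoxia 3 from -1.14 to 1.09. Within normoxia, where the mean itself is taken, the distance between the highest and the lowest deviation was 0.24 to 0.47. The probes of the stem thus came apart on hypoxia 3, where that distance was 2.23, against 0.78 on hypoxia 1 and 0.80 on hypoxia 2, all under quantile normalization; on hypoxia 3 it was 1.25 after cyclic loess scaling.

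On hypoxia 3 the deviations did not follow target length. The 21-nt tca-miR-190-5p stood at 0.04, the 22-nt hme-miR-190 at 0.78, the 23-nt bmo-miR-190-5p at 0.61 and the 24-nt dsi-miR-190-5p at 0.43. The pair of 26-nt targets took both extremes, nvi-miR-190 at 1.09 and ame-miR-190 at -1.14. Both of these, 2 of the 6 probes, lay at least 1 from their normoxia mean there, as did 91 of the 339 tested probes (26.8%), 31 of them above and 60 below. The deviations of nvi-miR-190, hme-miR-190 and bmo-miR-190-5p on hypoxia 3 were above 0 in the authors' values and under every scaling tried, while those of dsi-miR-190-5p and tca-miR-190-5p were below 0 with no scaling and with scaling to the 75th percentile. Under cyclic loess scaling ame-miR-190 was at -0.10 on hypoxia 3, so the size of its deviation there depends on the scaling.

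For the pair that differs by U26A, hypoxia 3 had the widest gap of the 6 arrays in each of the 6 sets of values tried, and the size of that gap varied with the scaling. Of these sets, no scaling and scaling to the 75th percentile give the same gaps by construction. Within an array, the log2 signal of nvi-miR-190 minus that of ame-miR-190 was 0.71, 1.25 and 3.48 on hypoxia 1, 2 and 3, against 1.09, 1.17 and 1.51 on normoxia 1, 2 and 3. Hypoxia 3 was the single array far from the others. In the authors' deposited values, after log2 with a pseudocount of 32, the same quantity was 0.85, 1.498 and 3.59 on hypoxia 1, 2 and 3 and 1.67, 1.61 and 1.63 on normoxia 1, 2 and 3. On hypoxia 3 it was 2.50 after cyclic loess scaling, 3.28 with no scaling and 3.11 with no background correction. Each of these targets has a single spot per array. The authors' values of these spots on hypoxia 3 were 1599.95 for nvi-miR-190 and 103.67 for ame-miR-190, beside a highest normoxia value of 775.08 for nvi-miR-190 and a lowest of 178.34 for ame-miR-190.

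The standard deviation that the scanner table gives for each spot was 4.61% of the median intensity for nvi-miR-190 and 8.47% for ame-miR-190 on hypoxia 3, where the median over tested probes was 5.50%. Among all 174 pairs of tested probes whose targets were 1 edit apart, the within-array difference on hypoxia 3 lay a median of 0.58 from its normoxia mean. Among the 12 pairs that differ in the last base only, as this pair does, that median was 0.66. For ame-miR-190 and nvi-miR-190 the difference lay 2.23 away, and 10 of the 174 pairs, this one included, moved at least that far under quantile normalization. After cyclic loess scaling it lay 1.25 away, and 43 of the 174 pairs moved at least that far; in the other sets of values it lay 1.87 to 1.99 away, with 10 to 20 pairs. On hypoxia 1 and hypoxia 2 the same pair moved by 0.55 and 0.0058, with medians over the 174 pairs of 0.27 and 0.23. Probes recur in several pairs, so these counts describe the arrays and carry no test. Hypoxia 3 was also the array with the lowest ratio of 3M to 3P calibration probes, 1.22%; its part in the divergence of the miR-190 probes was not tested.

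Over the 6 arrays the probes of the 5p arm fell into patterns that their sequence distance did not order. As a description over 6 shared arrays, hme-miR-190 and nvi-miR-190, 4 edits apart, had a Pearson r of 0.92, and bmo-miR-190-5p had 0.89 with hme-miR-190 and 0.80 with dsi-miR-190-5p, each 1 edit away. In contrast ame-miR-190 and nvi-miR-190, also 1 edit apart, had an r of -0.71. The probe ame-miR-190 had negative values with each 5p probe except tca-miR-190-5p, with which r was 0.43. On hypoxia 3 ame-miR-190 had its lowest value of the 6 arrays, 7.23, from a reading barely over the detection limit. On the same array nvi-miR-190, hme-miR-190, bmo-miR-190-5p and dsi-miR-190-5p had their highest, 10.71, 10.35, 10.50 and 9.56. The values of r between these probes, and their signs, therefore lean on hypoxia 3.

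Of the tested probes of other stems, the 5 with a pattern over the 6 arrays most like bmo-miR-190-5p were ame-miR-316_R-1_1ss11CT (Pearson r of 0.993), ame-miR-6056 (0.927), ame-miR-3717 (0.925), bmo-miR-71-3p (0.913) and PC-5p-1231647_1 (0.911), taking 1 per stem. Their targets were 13 to 15 edits from that of bmo-miR-190-5p. The closest, ame-miR-316_R-1_1ss11CT, read 10.54, 10.13 and 11.25 on hypoxia 1, 2 and 3 and 10.92, 10.72 and 10.15 on normoxia 1, 2 and 3. All 5 read highest on hypoxia 3, so these likenesses lean on that array.

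Among other miRNAs linked to low oxygen in animals, 17 stems were listed and only miR-210, a miRNA raised by low oxygen in mammals, was on the array. Of its 18 probes, 12 were detected on at least 1 array, none was detected on more than 3, and 0 could be tested. On at least 1 array of each group 3 of the 18 were detected. Of 33 other stems listed as conserved across bilaterians, 20 had tested probes, 160 in all, and 0 of these were called higher and 0 lower (limma, adjusted p of 0.05). Of the 160, 60 (37.5%) lay above 0, with a median difference of -0.13.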

How the data were processed

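RNA was labelled with Cy3 and hybridised to LC Sciences arrays, 1 for each sample, per the labels' protocols. Deposited scanner tables give spot median intensity as read, linear and without background subtraction (empty spots read well above 0), beside other values such as each spot's standard deviation. The authors' value table holds intensity values, subtracted and scaled by a method not given in the sources used here (log2 r with scanner values 0.995 to 0.999 on bright probes, medians 0.0400 to 6.44), and served as an alternative. Local background was estimated from the 20 nearest empty spots by their median. Normexp correction (limma 3.58.1, R 4.3.3, offset 50), which shrinks changes of dim probes, was followed by removal of control spots, quantile normalization and log2. Each probe has 1 spot per array. Probes detected on all 3 arrays of a group were fitted with limma (lmFit, eBayes) and Benjamini-Hochberg adjustment over all 339. The number of arrays limits the precision. Members, lists and the rule for named probes were chosen with earlier results of these data known. The rule named members in the fit and other members detected on at least 1 array. It only counted the remaining members, which are also named above. It further named the 5 probes most like the brightest and up to 3 probes per list, the latter given here as counts. The fit was tested on simulated data with independent noise, smaller than that of these arrays, and no outlying array. That test checks the code and does not measure the power of the fit here.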

Additional observations from a re-analysis of the deposited data

How the results depend on the processing

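In 18 alternatives of background correction, scaling, filter, spread model, array weights, replicate block and single arrays left out, 0 miR-190 probes passed limma's test, and none was detected on all arrays of one group and none of the other under 10 alternatives of the limit or the arrays. Over all probes the number past the threshold was 0 in each of the 18 except without hypoxia 3, where it was 1, a range of 0 to 1 with single arrays left out. The difference of bmo-miR-190-5p lay between -0.21 (array weights) and 0.28 (without hypoxia 2). Changes of sign occurred under 3 alternatives for bmo-miR-190-5p (array weights, without hypoxia 3, without normoxia 3). They occurred under 2 for nvi-miR-190 (array weights, without hypoxia 3) and 2 for dsi-miR-190-5p (without hypoxia 3, without normoxia 3). The other 3 changed sign under 1 each: hme-miR-190 without hypoxia 3, tca-miR-190-5p without normoxia 3 and ame-miR-190 under cyclic loess scaling. The array weights gave hypoxia 3 the lowest weight, 0.168. The cause of these changes was not tested. With single arrays left out the differences ran from -0.20 to 0.28 for bmo-miR-190-5p, -0.61 to -0.09 for ame-miR-190, -0.01 to 0.30 for dsi-miR-190-5p, -0.04 to 0.40 for hme-miR-190, -0.33 to 0.38 for nvi-miR-190 and -0.0052 to 0.58 for tca-miR-190-5p. The replicate numbers showed no pairing in the values (r of deviations -0.251, -0.273 and -0.0583 for numbers 1, 2 and 3). These values cannot show whether the samples were paired by design. With the replicate block 0 probes passed and bmo-miR-190-5p stayed at 0.06.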
